A study of Mus musculus with 12 samples.

Results

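The comparison described here sets the mouse tongue transcriptome of numbered group 3 against that of numbered group 1. Its members are the gene rows that the authors marked as tested for this pair and that reached 1 FPKM (fragments counted per kilobase of transcript and scaled to the sequencing depth) in 1 or both groups, 13114 of the 23235 rows of the table. The study took tongues of C57BL/6 mice at 31 weeks of age in 4 treatment groups, labelled V.C./Untr., V.C./EtOH, 4-NQO/Untr. and 4-NQO/EtOH, with n = 3 in each. EtOH is ethanol, and 4-NQO is a chemical carcinogen given to mice to produce tumours of the mouth. The labels spell out neither V.C. nor Untr., and nothing used here links the group numbers 1 to 4 to these treatments, so no treatment is named for any group below.

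The deposited tables give 1 level per gene and group and no level per sample, so values carry no SD, and the read depth is unknown. The labels do not say whether each sample was 1 mouse. The deposited p-values rest on these samples alone, and which sources of error they cover is not stated. A difference is log2(FPKM + 1) of group 3 minus that of group 1, which understates the change of genes near or below 1 FPKM. Its SE is taken from the deposited test statistic and converted to this scale, which shrinks the error of a group near or below 1 FPKM. A difference divided by its SE therefore does not give back the authors' test. A gene is said to rise or fall only where the q-value in the authors' deposited table was under 0.05.

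The tongue is covered by a stratified squamous epithelium over striated muscle, connective tissue and minor salivary glands. Basal keratinocytes divide, and their daughters move up, exchange their keratins and lay down a cornified envelope of cross-linked proteins. On the upper surface the filiform papillae also make the hard keratins otherwise known from hair and nail. Injured or inflamed squamous epithelium is known to switch on small proline-rich proteins, S100 alarmins, defensins and chemokines, many of them encoded in tight gene clusters.

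Tongue genes were present in both groups. Krt4, a keratin of the upper layers of mucosal epithelium, was listed at 2406 FPKM for group 1 and 3111 for group 3, and the mucosal keratin Krt76 at 493 and 247. The muscle creatine kinase Ckm stood at 5901 and 2313 FPKM and the fast myosin Myh2 at 44.6 and 19.9. None of these 4 genes passed the test. The levels of group 3 were the least precise of the 4 groups: the median SE of a log2 level was 0.14, 0.20, 0.49 and 0.33 for groups 1 to 4.

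Of the 13114 genes, 330 were higher in group 3, which is 2.52% of those tested, and 37 were lower, which is 0.282%; together they make 2.8%. The rises ran from 0.75 to 8.69 on the log2 scale with a median of 1.70, and the falls from -5.81 to -0.96 with a median of -1.84. Of the genes that rose, 113 did so by more than 2 on the log2 scale and 15 by more than 4, and 157 stood below 1 FPKM in group 1. The median difference over all genes tested was -0.04. At an unadjusted p under 0.05 the directions were less unequal, with 899 genes higher and 681 lower, and of the 581 genes more than 1 below 0 on the log2 scale 36 passed the test, against 312 of the 766 more than 1 above it. The differences were also centred on the median log2 ratio of -0.10 found over the 7312 genes at 5 FPKM or more in both groups. Centring on a negative value enlarges every rise and shrinks every fall, so it is no check on the rises. Each of the 330 rises still passed, and 11 of the 37 falls did not: Cacng1, Fbln7, Fibin, Fmod, H19, Kcna7, Lmod3, Myl2, Rbm38, Rilpl1 and Sbp.

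**Figure D1:**
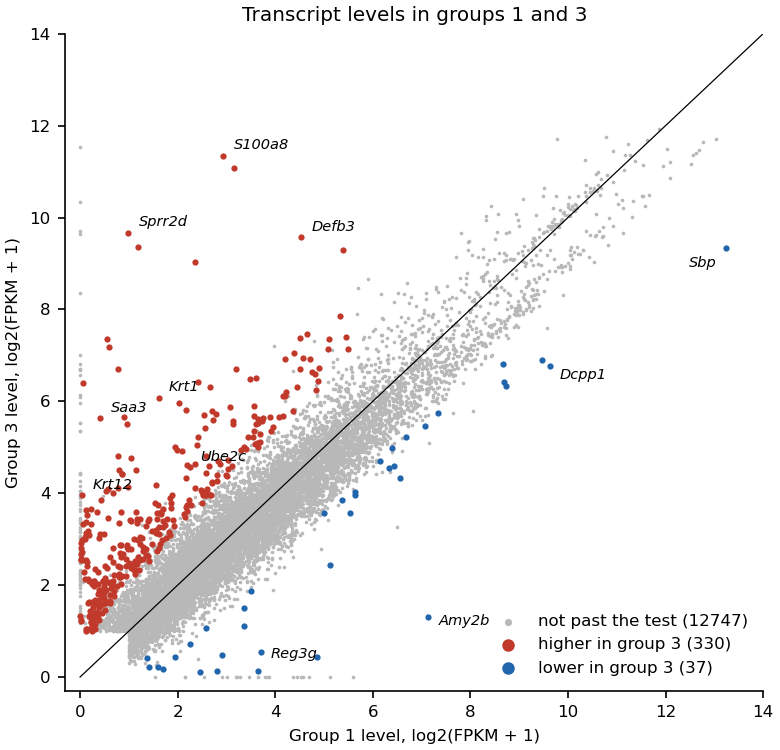
Level of each of the 13114 tested genes in group 1 (horizontal axis) and group 3 (vertical axis), both as log2(FPKM + 1), with the line of equal levels. The 330 genes that rose (red) are mostly low in group 1, the 37 that fell (blue) lie below the line, and points on either axis are rows listed at 0 in that group, none of which passed the test.

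Small proline-rich proteins, which transglutaminases cross-link into the cornified envelope, held the largest rises. Of the 13 Sprr genes tested, 11 rose and none fell, with a median difference of 5.95. Sprr2d (chromosome 3, 92143062 to 92144795, mm9) stood at 0.977, 2.96, 815 and 1076 FPKM in groups 1 to 4. Groups 3 and 4 were thus high and groups 1 and 2 low, and the difference between groups 3 and 1 was 8.69 ± 0.58 (SE). Sprr2i went from 1.29 to 651 FPKM and Sprr2h from 0.465 to 162. Sprr2b rose from 4.13 to 521 FPKM, Sprr2f from 0.503 to 144, Sprr2g from 0.704 to 104 and Sprr2e from 0.045 to 83.1. The pseudogene Sprr2j-ps rose with them, from 0.871 to 49.3 FPKM. Members that were already abundant in group 1 differed less.
Sprr1b rose from 41 to 624 FPKM (3.90 ± 0.69), and Sprr2a2 from 17.4 to 121. Sprr1a, at 222 and 816 FPKM, and Sprr3, the oesophageal member, at 243 and 441, did not pass. Sprr4 stayed below 1 FPKM in both groups. The Sprr2 genes are close copies of each other, so reads may have been split between them and the level of any single one is uncertain.

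The Sprr promoters are shown because this family carried the largest differences and because its members moved together. RefSeq promoters of 300 bases, from 250 bases before to 50 after the annotated start (GRCm38.p6, whose coordinates differ from the mm9 ones above), were found for 12 Sprr genes and for 9179 of the 13114 tested genes. Capitals mark the AP-1 site TGANTCA and the TATA box TATAAA, which were searched on both strands and do not overlap here.
Sprr2d, chr3:92338890-92339189, plus strand: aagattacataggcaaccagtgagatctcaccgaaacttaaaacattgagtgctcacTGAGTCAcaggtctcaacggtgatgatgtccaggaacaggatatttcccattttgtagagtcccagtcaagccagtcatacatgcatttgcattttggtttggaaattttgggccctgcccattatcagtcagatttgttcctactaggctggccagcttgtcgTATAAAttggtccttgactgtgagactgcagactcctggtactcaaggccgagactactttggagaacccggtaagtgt
Sprr2h, chr3:92385435-92385734, plus strand: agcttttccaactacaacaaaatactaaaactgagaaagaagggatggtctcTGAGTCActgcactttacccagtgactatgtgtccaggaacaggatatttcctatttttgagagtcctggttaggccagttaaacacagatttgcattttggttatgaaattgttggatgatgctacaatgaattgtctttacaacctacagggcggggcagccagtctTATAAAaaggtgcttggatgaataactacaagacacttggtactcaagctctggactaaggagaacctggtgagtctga
In Sprr2d the AP-1 letters begin 193 bases and the TATA box 29 bases before the start, and in Sprr2h they begin 198 and 29 bases before it. An AP-1 match was present in 9 of the 12 Sprr promoters (75%), in 14.7% of the promoters of the genes that rose, in 6.79% of those of all tested genes and in 7.81% of the 32851 promoters of the RefSeq table. A TATA match was present in 10 of the 12 Sprr promoters (83.3%), in 31% of the promoters of the genes that rose, in 10.1% of those of all tested genes and in 13.6% of the whole table. The Sprr promoters are related by duplication and are not independent of one another. Sprr genes are also among the genes that rose and among all tested genes, so those shares are not separate from the Sprr shares. Such a match describes the letters of the window only.

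The other precursors of the cornified envelope gave 1 call. Of 24 tested, Lce1m, a late cornified envelope protein, rose from 2.42 to 9.81 FPKM, and the median of the list was 0.71, with 21 of 24 differences above 0. Corneodesmosin (Cdsn) stood at 55.3 and 169 FPKM with an SE of 0.56 on a difference of 1.59, and cornulin (Crnn) at 40.5 and 16.4; neither passed. Enzymes that seal the envelope or make its lipids gave 3 rises among 18 tested genes. These were Abca12, the lipid transporter of lamellar granules (2.25 to 9.6 FPKM), Pnpla1, which forms the skin's acylceramides (2.59 to 7.57), and the keratinocyte caspase Casp14 (2.05 to 8.66). The transglutaminase Tgm1 stood at 35.4 and 114 FPKM and did not pass.

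Among keratins of the suprabasal layers, Krt1, the cornifying keratin of the epidermis, was the sole member of 10 tested that rose. Krt1 (chromosome 15, 101675857 to 101681217) stood at 2.05, 1.99, 66.7 and 62.2 FPKM in groups 1 to 4, a difference of 4.47 ± 0.54 between groups 3 and 1. Its usual partner Krt10 stood at 58.8, 52.6, 407 and 73.2 FPKM, and its difference of 2.77 ± 1.19 did not pass (q = 0.263 in the authors' deposited table). Krt17, a keratin of stressed epithelium, at 319 and 1039.6 FPKM, and the basal keratin Krt5, at 342 and 1220.2 FPKM, did not pass either. For the basal keratin Krt14 and the stress keratins Krt6a, Krt6b and Krt16 no comparison exists. The authors' table gives their loci as holding too many reads to be computed in group 3, where they are listed at 0, while in group 1 they stood at 485, 960.4, 418 and 489.9 FPKM. The mucosal keratin Krt13, at 5036 FPKM in group 1, was over the same read limit in group 3. The table gives Krt6a and Krt6b 1 shared locus with Krt75, Krt82, Krt84, Krt85 and other genes, so the limit was passed by that joint locus and not shown for any single one of them. Krt12, known from the corneal epithelium, rose from 0.0304 to 14.6 FPKM (3.92 ± 0.65).

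Hard keratins, those of hair, nail and filiform papillae, also differed. Of the 9 tested, 7 rose and none fell, with a median of 3.04. Krt34 (chromosome 11, 99898665 to 99902868) stood at 0.82, 1.59, 20.5 and 18 FPKM in groups 1 to 4, and its difference was 3.56 ± 0.54. Krt86 rose from 0.437 to 15.6 FPKM, Krt81 from 1.2 to 21.8, Krt31 from 0.967 to 16.6 and Krt83 from 2.88 to 31. Krt33b rose to 8.07 FPKM and Krt33a to 3.9, from 0.127 and 0.0529. Krt36, at 81.7 and 188 FPKM, and Krt35, at 6.95 and 8.54, did not pass. Keratin-associated proteins, the matrix in which hard keratin filaments are embedded, were put in a list after their values were seen. Of the 20 tested, 16 rose, with a median of 2.90 and differences from 1.83 to 3.53 among the 16. Krtap3-1 rose from 19.9 to 132 FPKM, Krtap13 from 10.2 to 88.8 and Krtap2-4 from 0.481 to 16.1. Another 32 genes of this family were below 1 FPKM or not tested. Near-identical copies are frequent in this family too, and reads may have been split between them.

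Many of the genes that rose were neighbours in the genome. In windows of 1 Mb on mm9, 8 windows held at least 5 genes that rose, and 72 of the 330 lay in them. The window with the most lies on chromosome 11, where 26 of 43 tested genes rose between positions 99276978 and 99911865; it holds Krt12, Krt39, the Krtap3, Krtap1 and Krtap4 families and the hard keratins Krt33a, Krt33b, Krt34 and Krt31. On chromosome 3, 13 of 36 tested genes rose between 92054569 and 92822982, with Sprr2a2 at the near end. On chromosome 16 a window held 7 of 10, among them Krtap26-1, Krtap13-1 and Krtap13, and another held 5 stefin genes of 20. A window on chromosome 5 held the chemokines Cxcl5, Cxcl3, Cxcl1 and Cxcl2 beside the growth factors Epgn and Areg, 6 of 13 tested genes. The chromosome 7 window, with 5 of 22, held Klk12, Klk9, Klk8, Klk7 and Klk6, with Klk11 and Klk10, which did not pass, between Klk12 and Klk9.

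Proteases of the surface layers and their inhibitors gave 10 rises among 23 tested genes, with no fall and a median of 1.37. Kallikreins are serine proteases, several of which cut the links between shed cells. Klk6 rose from 0.0947 to 11.4 FPKM (3.50 ± 0.50), Klk9 from 7.73 to 46.3, Klk12 from 17.4 to 68, Klk8 from 43.9 to 139.7 and Klk7 from 9.27 to 31. Spink5, the inhibitor of kallikreins that is lost in Netherton syndrome in humans, rose from 22.7 to 122 FPKM and Spink12 from 0.104 to 4.37. The membrane protease Tmprss11e and the serine proteases Prss22 and Prss27 rose too, to 2.43, 9.28 and 46.5 FPKM. Klk10, the most abundant kallikrein in group 3 among those that did not pass, stood at 103 and 378 FPKM.

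Inhibitors of cysteine proteases also rose. Of 10 stefins and cystatins tested, 5 rose, with a median of 1.87: Stfa2 from 1.06 to 26.2 FPKM, BC100530 from 5.59 to 47.5, BC117090 from 0.311 to 7.19, Csta from 11.6 to 45.1 and Stfa1 from 0.957 to 6.15. Stefin genes are near copies, and their separate levels are uncertain. Clade B serpins, which act inside cells, gave 2 rises of 16, in Serpinb2 (10.8 to 59.1 FPKM) and Serpinb3c (25.2 to 120.3). The Serpinb3a copy stood at 306 and 638 FPKM and did not pass.

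Desmosomes join keratinocytes to each other, and 4 of the 13 tested genes rose with none falling and a median of 1.56. Dsg3, the desmoglein of the deep layers, stood at 5.56, 7.95, 54.6 and 37 FPKM in groups 1 to 4, a difference of 3.08 ± 0.66. Dsg1b rose from 10.9 to 50.3 FPKM, and the desmocollins Dsc1 and Dsc2 from 25.9 to 98.3 and from 20.8 to 78.9. Among genes that fix basal cells to the basement membrane, the laminin chain Lama3 rose from 1.15 to 4.03 FPKM, and the integrin Itga6, at 8.96 and 26, did not pass. The connexin Gjb2 rose from 42.8 to 169 FPKM, the single call among 16 connexin and tight junction genes. Of 22 transcription factors of squamous epithelium, Grhl3, a regulator of the skin barrier, rose from 11.4 to 32.9 FPKM and Bnc1, a basal cell zinc finger protein, from 0.312 to 1.97. The master regulator Trp63 stood at 15.6 and 39.3 FPKM with an SE of 0.85 and did not pass. In bulk tissue a change in the number of cells of a type and a change in RNA per cell cannot be told apart.

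**Figure D2:**
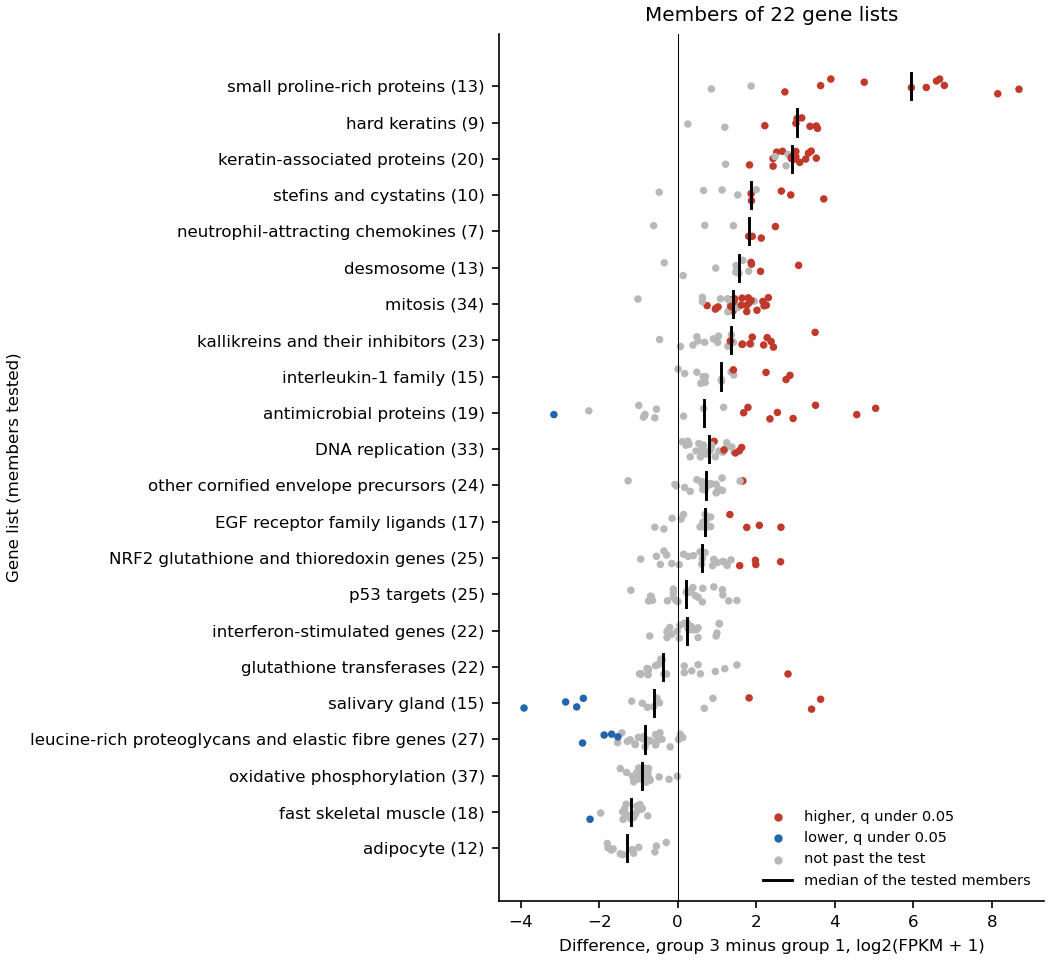
Difference between group 3 and group 1 on the log2(FPKM + 1) scale (horizontal axis) for each tested member of 22 gene lists (vertical axis, members tested in parentheses); red and blue points passed the test, and the black bar is the median. Epithelial, chemokine and mitosis lists lie to the right, with a median of 5.95 for small proline-rich proteins, and muscle and fat lists to the left, where most members are grey.

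The alarmins S100a8 and S100a9 form the calcium-binding dimer calprotectin, made by neutrophils and by stressed keratinocytes. S100a8 (chromosome 3, 90472993 to 90473956) stood at 6.67, 13, 2602 and 3184 FPKM in groups 1 to 4, a difference of 8.41 ± 0.67, and S100a9 followed it from 7.88 to 2148 FPKM. The other 13 S100 genes tested did not pass, S100a7a at 27 and 59.6 FPKM among them. The S100a8 promoter is shown because its TATA letters lie about as far from the start as in the printed Sprr and Krt34 promoters. It holds no AP-1 match in this window. A like distance of the TATA letters from the start is not taken as a link between these genes. Capitals mark TATAAA.
S100a8, chr3:90668821-90669120, plus strand: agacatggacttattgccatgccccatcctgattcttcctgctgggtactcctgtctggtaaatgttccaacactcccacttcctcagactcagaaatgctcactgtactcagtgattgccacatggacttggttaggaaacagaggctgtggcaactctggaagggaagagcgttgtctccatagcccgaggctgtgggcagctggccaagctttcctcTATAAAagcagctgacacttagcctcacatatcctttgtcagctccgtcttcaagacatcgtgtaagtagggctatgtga
Krt34, chr11:100041505-100041804, minus strand: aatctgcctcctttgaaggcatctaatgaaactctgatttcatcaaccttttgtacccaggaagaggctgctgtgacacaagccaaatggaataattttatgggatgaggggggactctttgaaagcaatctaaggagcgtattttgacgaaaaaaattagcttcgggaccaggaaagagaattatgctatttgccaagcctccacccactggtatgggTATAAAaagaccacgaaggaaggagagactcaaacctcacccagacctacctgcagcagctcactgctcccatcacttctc
The capitals begin 30 bases before the start in S100a8 and 31 bases before it in Krt34. The TATA letters were found in 4 of 5 hard keratin promoters. They were also found in 11 of the 27 promoters of genes that fell (40.7%).

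Antimicrobial proteins were divided, with 8 of 19 tested higher and 1 lower. Defb3, a beta-defensin of epithelia, rose from 22.2 to 759 FPKM (5.04 ± 0.51), Defb14 from 39.2 to 232 and Defb1 from 7.23 to 25.3. Lcn2, which binds bacterial siderophores, rose from 2.97 to 29.5 FPKM, and the peptidoglycan recognition protein Pglyrp4 from 1.07 to 9.6. The chitinase-like proteins Chi3l1, Chi3l4 and Chi3l3 rose from 0.937 to 44.6, from 8.21 to 104 and from 0.182 to 3.09 FPKM. Chi3l4 was also higher in group 2, at 32.3 FPKM, than in group 1, a comparison in which 0.594% of 12799 tested genes were higher and 0.305% lower. Reg3g, a C-type lectin that kills Gram-positive bacteria, fell from 12 to 0.469 FPKM. Chia, the acidic chitinase, at 265 and 54.6 FPKM, did not pass (q = 0.083 in the authors' deposited table). Serum amyloid A genes, acute phase apolipoproteins listed after their values were seen, gave 2 rises of 3, Saa3 from 0.328 to 48.9 FPKM (5.23 ± 0.61) and Saa1 from 0.608 to 15.1. All 3 tested members of a list of eosinophil-associated ribonucleases, also made afterwards, rose. Ear5 went from 4.36 to 84.4 FPKM, and the family's near copies may share reads. Ear6 was left out of that list because its row was not counted as a single symbol, and it rose from 0.745 to 9.23 FPKM.

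Interleukin-1 family genes lay above 0 in 15 of 15 tested members, 4 of which rose, with a median of 1.11. Il1rn, the receptor antagonist, rose from 4.93 to 42 FPKM (2.86 ± 0.63) and Il1b from 0.782 to 11.1. Il1f6 and Il1f9, the epithelial cytokines now called IL-36 alpha and gamma, rose from 33.4 to 162 and from 19.7 to 54.5 FPKM. Of 7 genes for chemokines that draw neutrophils and their receptors, 4 rose: Cxcl2 from 0.0406 to 4.85 FPKM, Cxcl5 from 0.593 to 6, Cxcl1 from 0.434 to 4.36 and Cxcl3 from 0.219 to 3.27. All 4 stayed at 6 FPKM or below, and the median of the list was 1.81, or 3.06 with a pseudocount of 0.1 FPKM. Other chemokines gave 5 rises of 24. Cxcl9, an interferon-gamma target that draws T cells, stood at 0.328, 2.98, 7.61 and 1.18 FPKM in groups 1 to 4; its level in group 2 was also above that in group 1 by the authors' test. Ccl8 rose from 4.98 to 27 FPKM, Ccl22 from 0.308 to 2.53, Cxcl13 from 0.311 to 2.56 and Ccl3 from 0.123 to 2.06. Cxcl10, at 0.38 and 14.4 FPKM, had an SE of 1.02 on a difference of 3.48 and did not pass.

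Few cytokine genes reached 1 FPKM, and 3 of the 14 tested rose. They were Il17f (0.0168 to 1.36 FPKM), a T cell cytokine acting on epithelia, and the receptor chains Il4ra (1.96 to 8.22) and Il22ra1 (0.531 to 2.17). Il19 was listed at 0 in group 1 and stood at 4.72 FPKM in group 3 without passing. None of 22 interferon-stimulated genes and none of 7 MHC class II genes passed, with medians of 0.25 and 0.32. Since 2.8% of all tested genes were called, lists this short can lack a call without differing from the rest. Ifi202b and Nlrc5 lie outside these lists and were picked after their values were seen. They rose from 4.11 to 16.2 and from 0.394 to 3.23 FPKM. Prostaglandin and lipoxygenase genes gave 2 rises of 22, the inducible cyclooxygenase Ptgs2 (0.283 to 3.87 FPKM) and the phospholipase Pla2g4e (5.04 to 16.1).

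Marker genes of leukocytes did not all move with the alarmins. The 16 neutrophil markers summed to 98.3 FPKM in group 1 and 4815 in group 3, of which S100a8 and S100a9 made nearly all. Without these 2 genes the other 14 summed to 83.7, 52.2, 65 and 145 FPKM in groups 1 to 4. Ltf alone made 73.6, 44.5, 39.8 and 19.7 FPKM of those sums, so they mostly follow Ltf in groups 1 to 3. Besides S100a8 and S100a9, Mmp9 alone among the neutrophil markers at 1 FPKM or more rose, from 0.452 to 3.18 FPKM. Clec4e also had the authors' q under 0.05 but stayed below 1 FPKM in both groups. Granulocyte precursor markers other than Chi3l3 summed to 0.301 FPKM in group 1, 0.191 in group 3 and 22.4 in group 4, and in group 3 each of the 7 was below 0.1 FPKM. Macrophage markers summed to 276 and 193 FPKM, and none of the 11 tested passed, against 2.8% of all tested genes. Lyz2 alone made 179 FPKM of the group 1 sum, and its difference was -0.83 ± 0.48. The lower sum in group 3 thus mostly follows Lyz2. The other tested macrophage markers lay on both sides of 0, from -0.32 (C1qa) to 0.62 (Cd68). T and NK cell markers summed to 6.54 and 15.8 FPKM, and Cd3g, a chain of the T cell receptor complex, rose from 0.301 to 1.89 FPKM. Icos, Cd4, Gzmb and Cd3d were higher in group 3 with the authors' q under 0.05 too. They stayed below 1 FPKM in both groups and are not counted. The 10 B and plasma cell markers summed to 36.8 and 108 FPKM, of which Sdc1, also made by keratinocytes, was 35.5 and 106. Among mast cell markers none of 6 tested passed, against the same 2.8%. The part that leukocyte numbers play in the rises of inflammatory genes was not tested.

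Mitosis genes rose broadly and by moderate amounts. Of 34 tested, 23 rose, none fell and 33 were above 0, with a median of 1.41, or 2.30 with a pseudocount of 0.1 FPKM. Ube2c, the ubiquitin carrier of the anaphase-promoting complex (chromosome 2, 164595429 to 164598402), stood at 3.78, 5.73, 22.7 and 23.6 FPKM in groups 1 to 4, with groups 3 and 4 above groups 1 and 2. Its difference was 2.31 ± 0.52. The mitotic cyclin Ccnb1 rose from 1.25 to 9.79 FPKM, its kinase Cdk1 from 1.05 to 5.94, topoisomerase Top2a from 1.36 to 9.82 and the survivin gene Birc5 from 2.01 to 12.5. The proliferation marker Mki67 rose from 0.764 to 5.46 FPKM and Foxm1, a transcription factor that drives mitotic genes, from 0.405 to 2.6. Cdc20, at 2.17 and 11.3 FPKM with an SE of 1.34, did not pass.
Replication genes lay above 0 in 33 of 33 tested, with a smaller median of 0.79, and 5 rose: the cyclin Ccne1 (0.911 to 4.91 FPKM), the helicase subunit Mcm5 (2.32 to 8.88), Mcm10 (0.208 to 1.31), Uhrf1 (1.43 to 5.71) and Hells (0.787 to 3.06). Among 16 cyclins and inhibitors of cyclin-dependent kinases, Cdkn2a, which encodes p16INK4a and p19ARF, rose from 0.497 FPKM by 2.88 ± 0.71 on the log2 scale and no other member passed. Cdkn1a stood at 65.4 and 102 FPKM. None of the 25 p53 targets passed, against 2.8% of all tested genes, with a median of 0.22.

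Mitotic promoters are shown because they differ in letters from the Sprr promoters although both groups of genes rose. Capitals mark the CCAAT box CCAAT and the cell cycle homology region TTTGAA, both searched on either strand, so that ATTGG and TTCAAA are their reverse forms.
Ube2c, chr2:164769679-164769978, plus strand: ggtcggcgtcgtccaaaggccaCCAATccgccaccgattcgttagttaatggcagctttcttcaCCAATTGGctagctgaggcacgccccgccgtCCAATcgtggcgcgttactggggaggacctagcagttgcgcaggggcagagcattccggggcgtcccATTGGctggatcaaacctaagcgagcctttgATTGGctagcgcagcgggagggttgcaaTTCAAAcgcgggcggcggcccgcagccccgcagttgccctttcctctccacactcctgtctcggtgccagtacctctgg
Ccnb1, chr13:100786437-100786736, minus strand: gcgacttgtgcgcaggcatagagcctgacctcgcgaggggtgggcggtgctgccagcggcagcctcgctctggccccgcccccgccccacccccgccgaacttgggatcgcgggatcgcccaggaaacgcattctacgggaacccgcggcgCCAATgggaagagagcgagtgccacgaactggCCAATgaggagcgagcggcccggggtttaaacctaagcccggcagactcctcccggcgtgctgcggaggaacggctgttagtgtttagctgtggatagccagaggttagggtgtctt
Ube2c held 6 CCAAT matches, a pair of which overlap in ccaattgg, and TTCAAA beginning 29 bases before the start. Ccnb1 held CCAAT beginning 99 and 67 bases before the start and no match to TTTGAA in this window. CCAAT was found in 23 of 30 mitosis promoters (76.7%), against 42.9% of the promoters of tested genes and 37.4% of the whole table. TTTGAA was also found in 23 of the 30, against 14.4% of tested genes, 17.9% of the whole table and 4 of 27 replication promoters. None of the 30 held an AP-1 match.

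**Figure D3:**
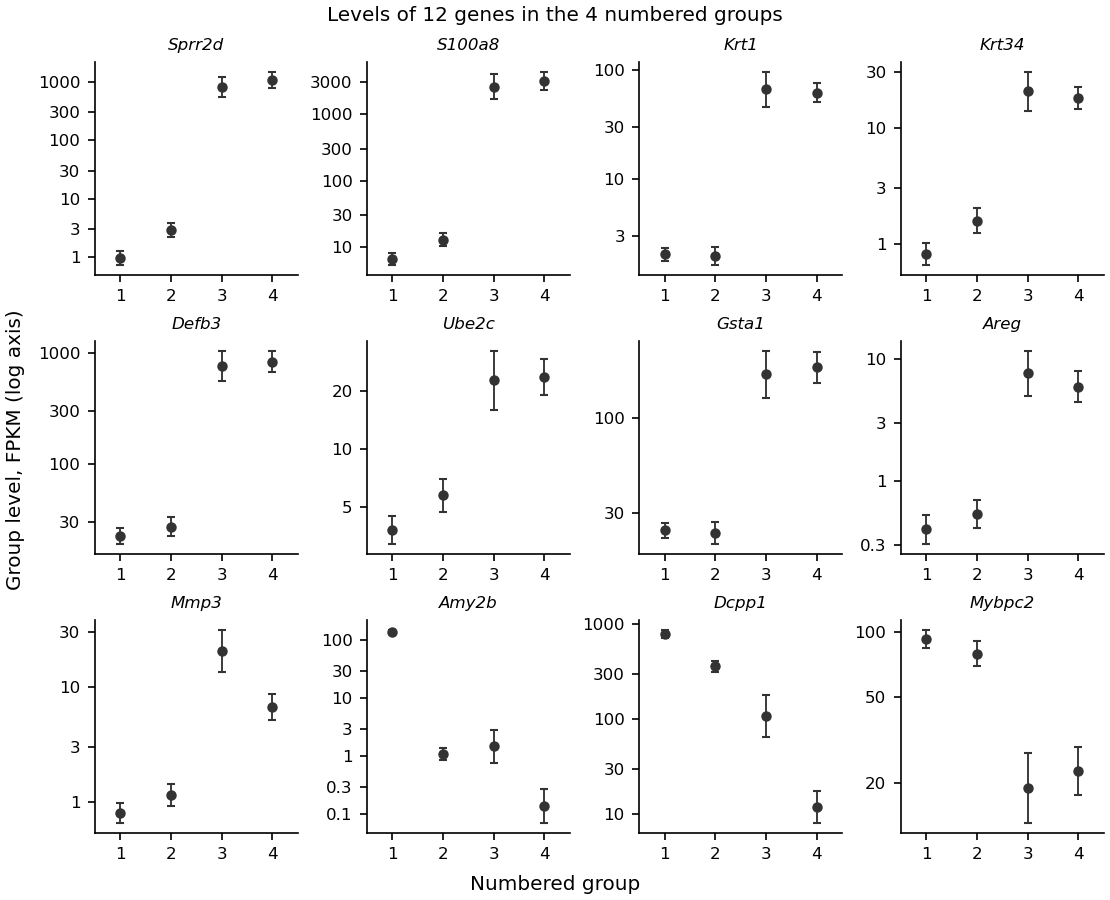
Level of 12 genes in each of the 4 numbered groups (horizontal axis) in FPKM on log axes (vertical axis); points are the deposited group values and bars are ± 1 SE on the log2 scale taken from the deposited statistics. Groups 3 and 4 stand above groups 1 and 2 for Sprr2d, S100a8, Krt1 and Ube2c, while Amy2b is high in group 1 alone, at 139 FPKM.

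Genes of the glutathione system that the oxidant sensor NRF2 is known to drive gave 4 rises of 25 tested. These were Slc7a11, the cystine importer (1.93 to 17.1 FPKM, 2.62 ± 0.43), both subunits of the enzyme that starts glutathione synthesis, Gclm (17.6 to 72.7) and Gclc (11.5 to 48.2), and the quinone reductase Nqo1 (28.4 to 86.6). The list's median was 0.63. Among 22 glutathione transferases Gsta1 alone rose, from 24 to 175 FPKM (2.81 ± 0.45), while 13 of the 22 lay below 0. Gm3776, a near copy outside the lists, moved from 21.6 to 166 FPKM, and reads may be shared between the pair. Akr1b8, an aldo-keto reductase, rose from 4.31 to 36.3 FPKM, with the other 13 reductases not passing. Aldh1a3, which makes retinoic acid, rose from 0.612 to 3.64 FPKM, and Cyp26b1, which breaks it down, from 0.931 to 4.33. Lrat, which stores retinol as ester, rose from 0.153 to 1.72 FPKM. The cytochrome P450 genes were split: Cyp7b1 rose from 0.986 to 5.93 FPKM, whereas Cyp2a5, which oxidises coumarin and nicotine, fell from 33.6 to 4.4 FPKM and its near copy Cyp2a4 from 2.87 to 0.359.

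Ligands of the EGF receptor gave 4 rises among the 17 genes of that list: Areg (0.405 to 7.7 FPKM, 2.63 ± 0.55), Hbegf (2.7 to 14.6), Epgn (6.31 to 23.8) and Tgfa (2.54 to 7.9). None of the receptors passed. Proteases of the matrix gave 4 rises of 20, the stromelysin Mmp3 (0.805 to 20.3 FPKM, 3.56 ± 0.59), the collagenase Mmp13 (0.0688 to 3.37), Mmp9 and Adam8 (0.825 to 3.58). Col12a1 rose from 0.489 to 2.1 FPKM, the single call among 23 collagens, and Cdh3, the P-cadherin of basal cells, from 1.99 to 10.9. Grem1, a BMP antagonist, rose from 0.2 to 1.57 FPKM just inside the threshold. No member of the Wnt (24 tested) or Notch (17 tested) lists passed, against 2.8% of all tested genes, with medians of 0.12 and 0.03. Hif1a rose from 10.8 to 40.1 FPKM and Car12, a carbonic anhydrase known as its target, from 11.9 to 38.1, and the other 11 hypoxia genes did not pass. The glucose transporter Slc2a1 rose from 7.78 to 44.6 FPKM, whereas 17 of the 25 genes of glucose uptake and glycolysis lay below 0 without passing. Fosl2, an AP-1 subunit, rose from 6.94 to 20.0 FPKM, the single call among 17 immediate early genes; Junb stood at 27.9 and 69.7 and Fosl1 at 0.0669 and 1.25, neither passing.

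Of the 367 called genes, 193 belonged to no list, and those named in this paragraph were chosen after their values were seen. Uox, the urate oxidase that mice keep and humans have lost, rose from 0.175 to 11.6 FPKM. Nppb, the B-type natriuretic peptide, rose from 0.0892 to 9.4 FPKM, and Csn1s1, a milk casein, from 0.009 to 6.58. The transcription factors Tlx1, Isl1 and Sp9 rose from 0.788 to 6.32, from 0.117 to 3.41 and from 0.00382 to 1.52 FPKM. Mcpt1, a protease of mucosal mast cells, rose from 0.0191 to 5.4 FPKM. Idi2, an isomerase of isoprenoid synthesis, rose from 1.92 to 12.9 FPKM, and the sterol enzyme Sqle from 11.5 to 31.1. Nfkbiz and Zc3h12a, which tune NF-kappaB responses, rose from 2.6 to 13.8 and from 3.53 to 19.2 FPKM. Duox1 and its maturation factor Duoxa1, which make hydrogen peroxide at epithelial surfaces, rose from 3.51 to 12 and from 7.13 to 22.2 FPKM. Irg1, which makes itaconate in macrophages, rose from 0.0111 to 1.32 FPKM.

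The largest falls were in genes of exocrine secretion. Amy2b, a pancreatic-type amylase (chromosome 3, 112950574 to 112959645), stood at 139, 1.1, 1.49 and 0.139 FPKM in groups 1 to 4, a difference of -5.81 ± 0.58 between groups 3 and 1. Its neighbour Amy2a5 stood at 28.1, 0.206, 0.354 and 0.0314 FPKM, and the pair are near copies that may share reads. Both were high in group 1 alone, and group 3 did not differ from group 2 for either, with q = 1 for both in the authors' deposited table. Upk1b, a uroplakin, stood at 2.27, 0.115, 0.131 and 0.0606 FPKM and Reg3g at 12, 0.0986, 0.469 and 0.00943, the same order of high and low groups. The salivary amylase Amy1 was over the read limit in group 1 and stood at 5543 FPKM in group 3, so no comparison exists.

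Sbp, a spermine-binding secretory protein, stood at 9676, 5317, 642 and 105 FPKM in groups 1 to 4, and its difference of -3.91 ± 1.21 gave q = 0.0427 in the authors' deposited table. The demilune cell and parotid proteins fell together. Dcpp1 stood at 787, 359.9, 108 and 11.9 FPKM, Dcpp3 at 712, 267, 119 and 11.6, and Dcpp2 at 423, 121, 79.3 and 6.07. Each of the 3 was also lower in group 2 than in group 1 by the authors' test, and as near copies they may share reads. Other members of the salivary gland list rose: Car6, the secreted carbonic anhydrase, from 5.36 to 78 FPKM (3.64 ± 0.79), Pip, the prolactin-inducible protein, from 0.353 to 13.4 and the peroxidase Lpo from 0.599 to 4.65. The list of 15 thus held 3 rises and 4 falls, and its 17 members not over the read limit summed to 13962, 7810.2, 4137 and 555 FPKM. Sbp alone made 9676, 5317, 642 and 105 FPKM of these sums, and Amy1 and Muc5b, over the limit, are left out. Sbpl, a neighbour of Sbp, was over the read limit in group 1 and stood at 7344 FPKM in group 3, so no comparison exists. The share of gland in the tissue taken was not tested.

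Svs4 and Svs5, named for the seminal vesicle, fell from 4.46 to 0.0796 and from 6.04 to 0.102 FPKM. Gm20579, also named Esp18 after the secreted peptides of exocrine glands, fell from 11.6 to 0.0954 FPKM (-3.52 ± 0.17), with 2.82 FPKM in group 2. That SE is small because the group 3 level lies near 0, and it overstates the precision of the fall. The secretoglobin Scgb1a1 fell from 9.33 to 1.16 FPKM and the paraoxonase Pon1 from 1.68 to 0.164.

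Muscle genes were among the remaining falls, though few members of the muscle lists passed. All 18 fast muscle genes tested lay below 0, with a median of -1.19 and a range from -2.23 to -0.76, and 1 fell: Mybpc2, the fast myosin-binding protein C, at 93.1, 79.6, 19 and 22.7 FPKM in groups 1 to 4 (-2.23 ± 0.53). Parvalbumin (Pvalb), at 755 and 193 FPKM, gave q = 0.069 in the authors' deposited table. Of the slow muscle list Myl2 fell from 2.04 to 0.163 FPKM, while Csrp3 stood at 72.6 and 43.5. In the regenerating muscle list all 10 tested were below 0 and 2 fell, Actc1, the cardiac actin also made in immature fibres (413 to 84.9 FPKM, -2.27 ± 0.55), and the imprinted noncoding RNA H19 (408 to 111). Outside the lists, genes known from striated muscle fell too, by values of -1.97 to -1.43: Itgb1bp3, Ankrd1, Sh3bgr, Jsrp1, Lmod3, Cacng1 and Kcna7. Ankrd1 fell from 80.0 to 22.3 FPKM and Sh3bgr from 134 to 43.3.

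Matrix genes of the leucine-rich proteoglycan and elastic fibre list gave 4 falls of 27 and no rise, with a median of -0.83. Keratocan (Kera) fell from 6.46 to 0.391 FPKM (-2.42 ± 0.32), fibromodulin (Fmod) from 9.34 to 1.83, the microfibril protein Mfap4 from 48.9 to 14.6 and the fibulin Fbln7 from 4.97 to 1.08. Lumican (Lum) stood at 75.5 and 35.2 FPKM and did not pass.

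Several lists lay almost wholly on one side without a call. All 37 oxidative phosphorylation genes were below 0, from -1.46 to -0.01, with a median of -0.90 against -0.04 for all tested genes, and none passed; Cox7a1, the muscle subunit, came nearest at 2237 and 813 FPKM. All 12 adipocyte genes were below 0, with a median of -1.28, adiponectin (Adipoq) standing at 17.1 and 4.29 FPKM. Smooth muscle, fibroblast and endothelial markers had medians of -1.02, -0.74 and -0.54. Summed levels of the marker lists moved the same way. Fast muscle markers summed to 44549 FPKM in group 1 and 19650.1 in group 3, adipocyte markers to 906 and 394, and fibroblast markers to 1519.9 and 802. Basal keratinocyte markers summed to 931 and 2332 FPKM and those of differentiated tongue keratinocytes to 5929 and 9479, and 12 of 12 and 11 of 13 tested members were above 0. These sums leave out members over the read limit: Acta1 of fast muscle, Krt14 of the basal list and Krt13 of the differentiated list. Krt13 alone stood at 5036 FPKM in group 1. The part that the mix of epithelium and muscle in the tissue plays in any of the differences was not tested.

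Group 4 was set against group 3 directly. Of 12918 genes tested for that pair, 38 passed, which is 0.294%; 22 were higher in group 4, which is 0.17%, and 16 were lower, which is 0.124%. For 9 of the 38, group 3 had also differed from group 1. Car6 stood at 78 and 2.72 FPKM in groups 3 and 4 (-4.41 ± 0.89), close to the 5.36 of group 1. Krt12 stood at 14.6 and 0.32 FPKM (-3.57 ± 0.67) and Cxcl9 at 7.61 and 1.18 (-1.98 ± 0.49), so these 3 genes were high in group 3 alone, apart from the 2.98 FPKM of Cxcl9 in group 2. Idi2 was higher again in group 4, at 46.7 FPKM. The 3 Dcpp genes were lower again, and Svs4 and Svs5, lowest in group 3, stood at 28 and 26.7 FPKM in group 4.
Among the genes that did not differ between groups 3 and 1 but did between 4 and 3 were neutrophil granule genes: Camp stood at 0.266 and 47.6 FPKM in groups 3 and 4, Ngp at 0.0973 and 37.2, and Elane at 0.0117 and 6.84. Chia stood at 54.6 and 1.2 FPKM and Azgp1 at 12.1 and 0.639. For Sprr2d, S100a8, Krt1 and Ube2c no difference between groups 4 and 3 was called, which does not show that the levels were equal. Of the 330 genes that rose in group 3, 231 had a lower level in group 4 than in group 3 and 99 a higher one, with 4 of the 330 passing the test of that difference.

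**Figure D4:**
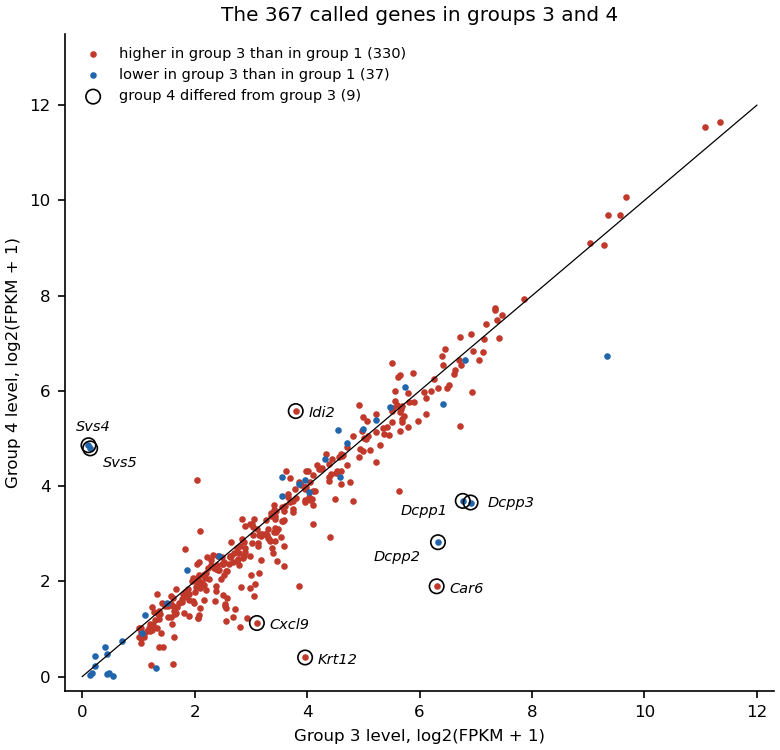
Level of the 367 genes that differed between groups 3 and 1, in group 3 (horizontal axis) and group 4 (vertical axis), as log2(FPKM + 1), with the line of equal levels. Red genes were higher and blue genes lower in group 3 than in group 1; circles mark the 9 named genes for which group 4 also differed from group 3, with Car6, Krt12 and Cxcl9 far below the line and Svs4 and Svs5 above it.

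The 1 FPKM rule fell between close values. Tmem220 and Plcb1, at 1 FPKM in group 1, were the lowest inside it, and Cabp1 and Zfp759, at 0.9996 and 0.9992 FPKM, the highest outside. On the q scale Grem1 and Fmod lay just inside, both at 0.0499 in the authors' deposited table, and Wfdc5 and Cenph just outside at 0.0502 and 0.0507. Among tested rows, 99 were listed at 0 in group 1 or group 3, 86 of them with microRNA or small nucleolar RNA symbols, and none was called.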

How the data were processed

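RNA from tongue was prepared with a QIAGEN RNeasy kit, DNase treatment and poly-A selected Illumina TruSeq libraries, per the labels' protocols, which record no strand marking, so that reads of overlapping genes cannot be told apart. The series' design text states HiSeq2000 sequencing, comparison with mm9 and FPKM levels by Cufflinks. GSNAP 2011.11.17 and edgeR are named without a role, per the submitters' processing notes. The authors deposited 6 tables, 1 for each pair of 4 numbered groups, with 1 level per gene and group, whose unit the header does not name and which was read as that FPKM, a log2 ratio, a test statistic (a score), a p-value and a q-value. Group levels were the same in every table to within 0.1%, except in 16 rows, none of them called. Of the 23235 rows, 15361 were marked tested, 7664 not tested, 153 low in data, 35 failed and 22 over a read limit. These 22 are listed at 0 in 1 or both groups, and that 0 is not a level. Of the tested rows, 2247 stayed below 1 FPKM and were left out.

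Called genes had the authors' q-value under 0.05 and 1 FPKM in 1 or both groups. Differences used a pseudocount of 1 FPKM. Each SE is the authors' log2 ratio divided by their statistic, resolved into group variances and converted with the delta method to fit log2(FPKM + 1); 366 of 367 called genes have one. No test across samples was added, since no values per sample were used here. The calculation was tested on simulated data. The rule for names covers the 25 largest rises, up to 40 largest falls, called members of 69 lists of pathways and cell types, up to 4 members per list that did not pass, genes over the read limit, the 10 largest in each direction between groups 4 and 3, and genes at the thresholds; others are said to be chosen after their values were seen. The genes, lists and tests were chosen with earlier results of these data known. Of the 1257 genes in the lists, 1238 were found by symbol. Not every gene under the rule is named. Promoter sequences are from RefSeq (GRCm38.p6). Alternatives varied the q threshold, the FPKM filter, the adjustment, the pseudocount, a 2-fold minimum and centring. Python 3.11.15, pandas 2.3.3, numpy 2.4.6, scipy 1.17.1 and matplotlib 3.10.9 were used.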

Additional observations from a re-analysis of the deposited data

Results flagged for a closer look

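Each result here is a gene that differed between groups 3 and 1 and for which the direct test of group 4 against group 3 also passed. The values are differences of group 4 minus group 3 on the log2(FPKM + 1) scale. Car6 (-4.41), Krt12 (-3.57) and Cxcl9 (-1.98) had risen in group 3 and were lower in group 4. Idi2 (1.78) had risen in group 3 and was higher again in group 4. Dcpp2 (-3.50), Dcpp3 (-3.26) and Dcpp1 (-3.08) had fallen in group 3 and were lower again in group 4. Svs5 (4.65) and Svs4 (4.75) had fallen in group 3 and were higher in group 4 than in any other group. No values per sample were used here, so how many samples show each direction is unknown.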

How the results depend on the processing

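The counts of 330 rises and 37 falls moved most with the threshold. At a q under 0.01 they were 203 and 14, with a Bonferroni adjustment 111 and 5, and with a minimum of 5 FPKM in 1 or both groups the rises were 214. The count of 38 genes between groups 4 and 3 was 24 at 5 FPKM and 15 with Bonferroni; there 37.5% and 73.3% of the calls were higher in group 4, against 57.9%. With no FPKM filter, an adjustment within the comparison, a 2-fold minimum or centring, these 3 counts stayed within 1.5 times the ones reported. The 16 genes lower in group 4 were 10 with the adjustment within the comparison and 9 when centred. The share of rises among the calls between groups 3 and 1 ran from 88.1% to 95.7%, against 89.9%. No called gene under the naming rule could reverse under these settings, so the lack of a reversal is no check. Only centring can change a sign, and its shift of -0.10 was smaller than every called difference. Of the 182 genes under that rule that passed, not all of them named in the text, 58 no longer did at a q under 0.01 and 11 when centred. Of 69 list medians, 13 values in 11 lists moved by more than the median SE of the list's members; the median of the other chemokines went from 0.73 to -0.05 and that of the matrix metalloproteinases from 0.47 to -0.12 at 5 FPKM, and that of the small proline-rich genes from 5.95 to 6.94 with a pseudocount of 0.1 FPKM. No paired analysis was possible because the tables used here hold no values per sample, and for the same reason no replicate could be left out. The SE of group 3 levels was the largest of the 4 groups, which limits the precision of every difference here.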
